A study of Mus musculus with 45 samples.

Results

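The 6 genes described here encode the constant region of the kappa light chain (Igkc), the constant regions of 3 lambda light chains (Iglc1, Iglc2 and Iglc3), the joining chain of polymeric antibody (Jchain) and Vpreb3, a relative of the surrogate light chain. They were taken by gene symbol from the 28196 genes listed in both deposited expression tables. All 6 passed the filter on low values and were measured in all 15 groups. RNA of C57BL/6 mouse splenic B2 cells, the conventional B cells of the spleen, was read in 45 libraries, 3 per group, taken before culture and at set days of it. The groups were dEx1A cells at days 4 and 7 of LPS, TLR and BCR culture, wild type cells at days 4 and 7 of LPS culture and at days 4, 7 and 10 of TLR and BCR culture, and wild type B cells at day 0. The allele Prdm1Δex1A, written dEx1A here, lacks exon 1A of Prdm1, the gene of the repressor Blimp-1. Per the labels' protocols, TLR cells were started on irradiated L cells that carry CD40L with LPS at 5 µg/mL, and BCR cells on the same feeder cells with F(ab')2 antibody to IgM and IgG at 12 µg/mL. Both had 50 ng/mL each of IL-4 and IL-5, left the feeder cells at day 2, and had IL-6 at 10 ng/mL and APRIL at 100 ng/mL with amino acids and lipids from day 4. The LPS culture is known only by its label, and its composition is not given in the sources used here. All dEx1A groups and both wild type LPS groups are labelled as 9-week-old females, and the other wild type groups as 7-week-old males, while the protocol text calls the mice matched for sex and age.

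Depth, worked out by inverting the deposited values, was 15101900 to 35547900 gene reads a library, with a median of 23241900. The 15 libraries of dEx1A at day 7 and of wild type LPS culture were the 15 shallowest, at no more than 19580800 gene reads each. Comparisons of dEx1A LPS at day 4, dEx1A TLR at day 7 and dEx1A BCR at day 7 with wild type, of wild type LPS at day 4 with day 0, and of dEx1A day 7 with day 4 set one of these depth classes against the other, so depth class cannot be told apart from genotype or day there. The dEx1A and wild type TLR and BCR groups also differ in labelled sex and age, as do wild type LPS cells and day 0 B cells, so sex and age cannot be told apart from genotype or LPS culture there. Prdm1, counted over the whole gene and so no check of the deleted exon, averaged 9.85 on the log2 scale in dEx1A LPS cells against 12.52 in wild type LPS cells at day 4, and 10.31 in dEx1A BCR cells against 12.46 in wild type BCR cells at day 7. The labels do not say that replicates came from separate animals, so p-values measure the spread between these samples, which may be technical. In bulk RNA, fewer antibody-secreting cells and less of an RNA per cell cannot be told apart.

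An antibody joins heavy chains to light chains that are either kappa or lambda, and a B cell normally makes 1 kind of light chain. The J chain links IgM pentamers and IgA dimers, and its gene is among those that the plasma cell programme switches on, after release from repression by Pax5. Vpreb3 is known from precursor B cells, where it binds newly made immunoglobulin chains, and unlike Vpreb1 and Vpreb2 it is also transcribed in mature B cells.

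The 4 light chain constants each have a transcript of 1 exon on GRCm38, and their genes span chr6:70726435-70726966 for Igkc on the plus strand, and on the minus strand at chr16:19061618-19062071 for Iglc1, chr16:19198396-19200351 for Iglc2 and chr16:19065230-19065681 for Iglc3. The Iglc2 gene span is longer than its transcript, which measures 458 bases. Jchain has 4 exons at chr5:88519809-88527891 on the minus strand, and Vpreb3 has 2 exons at chr10:75943057-75949657 on the plus strand. The 3 lambda genes are shown over 90 coding bases because their separate counts depend on how far they differ. Each sequence is read 5′ to 3′ on the coding strand, from coding base 84 in Iglc1 and Iglc3 and from base 85 in Iglc2, and capitals mark the 27 positions at which the 3 are not all alike.
Iglc1, chr16:19061899-19061988: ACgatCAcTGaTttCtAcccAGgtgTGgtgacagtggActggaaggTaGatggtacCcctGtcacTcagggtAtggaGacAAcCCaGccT
Iglc2, chr16:19198680-19198769: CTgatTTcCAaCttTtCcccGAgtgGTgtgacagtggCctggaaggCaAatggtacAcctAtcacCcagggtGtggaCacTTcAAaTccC
Iglc3, chr16:19065509-19065598: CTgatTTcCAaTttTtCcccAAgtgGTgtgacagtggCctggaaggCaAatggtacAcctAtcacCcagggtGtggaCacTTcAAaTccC
Within this stretch Iglc2 and Iglc3 differ at 2 bases, Iglc1 and Iglc3 at 25, and Iglc1 and Iglc2 at 27. Over the whole coding sequence Iglc2 and Iglc3 were 96.2% identical, with 12 differing positions, whereas Iglc1 was 73.4% identical to Iglc2 and 74.2% to Iglc3, and Igkc was 50.9 to 52.9% identical to the lambda genes. A read of 76 bases could therefore be common to Iglc2 and Iglc3 in 4 of 383 start positions of Iglc2, which is 1.04%, and no 76-base window of Igkc, Iglc1, Jchain or Vpreb3 occurred in any other annotated transcript. How reads that match both Iglc2 and Iglc3 with sequencing errors were divided was not tested, so their separate values are less certain than the sum of the 3.

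RefSeq's promoter table for GRCm38.p6, with windows from 250 bases before to 50 bases after the start, matched Vpreb3 and Jchain by symbol, and Igkc, Iglc1, Iglc2 and Iglc3 had no entry. The Vpreb3 promoter is shown because it carries a motif known from immunoglobulin genes. The octamer ATTTGCAT, the motif bound by Oct-1 and Oct-2 in immunoglobulin promoters, began 45 bases before the Vpreb3 start site, and it was found on either strand in 1.74% of 32851 promoter windows. It stands in capitals in the 150 bases before the start site. That start site, chr10:75948300, lies inside the Vpreb3 gene span given above, which begins at chr10:75943057.
Vpreb3, chr10:75948150-75948299, plus strand: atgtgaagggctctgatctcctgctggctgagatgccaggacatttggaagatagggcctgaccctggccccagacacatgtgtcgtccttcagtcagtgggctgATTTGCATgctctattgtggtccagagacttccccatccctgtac
The MEF2 motif CTANNNNTAG (3.69% of windows), the PU.1 core GAGGAA (28.3%) and the core CCACG shared by XBP1 and ATF6 sites (32.8%) were searched on both strands and were not among the letters of either window, and no octamer was found in the Jchain window. These matches describe letters only.

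Igkc took more reads than any other member in every group. Per kilobase of transcript, normalised reads of Igkc in TLR cells at day 10 averaged 13553900 ± 1827780, against 111468 ± 8685 in day 0 B cells (SD, n = 3 each). Its share of all gene reads ran from 15.04 to 17.4% in TLR cells at day 10, from 5.77 to 11.6% in BCR cells at day 10 and from 6.82 to 8.72% in wild type LPS cells at day 7, against 0.345 to 0.399% at day 0. The 6 genes together took 19.6 ± 0.562% of reads in TLR cells at day 10 and 0.514 ± 0.0305% at day 0 (SD, n = 3 each). Values are given from here on as deposited, on a log2 scale whose value for no reads is 3.04, so that a difference of 1 at these levels is close to a doubling.

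**Figure D1:**
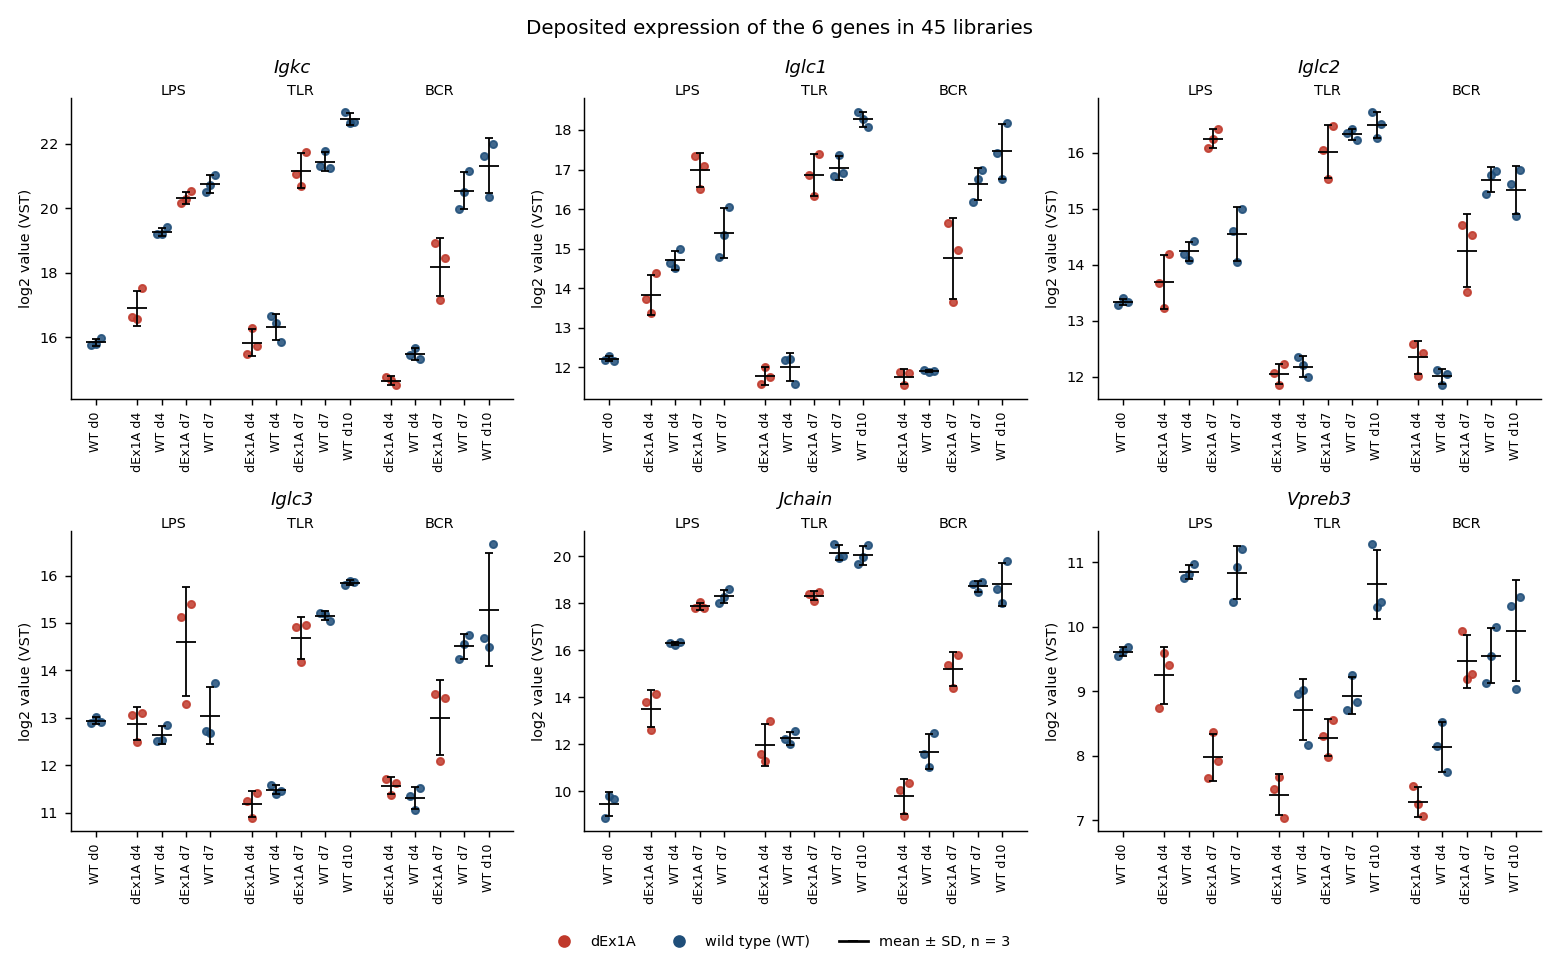
Deposited log2 expression (vertical axis) of the 6 genes in the 45 libraries, by culture, genotype and day along the horizontal axis; points are libraries and black bars the mean ± SD of 3. The highest group means lie in wild type TLR cells at day 10 for Igkc and the lambda genes, and at day 7 for Jchain. Igkc lies between 22.65 and 22.99 in TLR cells at day 10, whereas Vpreb3 stays between 7.04 and 11.28 in all libraries.

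Ranked by mean, Igkc was highest in TLR cells at day 10 (22.77) and lowest in dEx1A BCR cells at day 4 (14.66). Of the 14 steps between neighbours in that order, 10 joined groups whose libraries overlapped, and the separated ones lay below TLR day 10, below dEx1A LPS day 7, below wild type LPS day 4 and above dEx1A BCR day 4. The order of Jchain ran from wild type TLR cells at day 7 (20.15) to day 0 B cells (9.46), with 9 overlapping steps. All 3 lambda genes were also highest in TLR cells at day 10, at 18.27 for Iglc1, 16.50 for Iglc2 and 15.85 for Iglc3. Vpreb3 had another order, from wild type LPS cells at day 4 (10.85) to dEx1A BCR cells at day 4 (7.28), and all 14 of its steps joined overlapping groups.

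In wild type TLR culture, 4 of the 6 genes passed the test (limma, Benjamini-Hochberg adjusted p below 0.05) between day 4 and day 0, where 48.3% of the 19497 genes tested did. Between day 7 and day 4 it was 5 of 6 against 36.3% of genes, between day 10 and day 7 it was 3 of 6 against 8.20%, and between day 10 and day 0 it was 6 of 6 against 46.0%. In BCR culture the counts were 4 of 6 against 50.6% for day 4 over day 0, 6 of 6 against 30.5% for day 7 over day 4, and 5 of 6 against 52.4% for day 10 over day 0. Between day 10 and day 7 of BCR culture limma called 0 of 6, against 16.7% of genes; 3 had an unadjusted p below 0.05, and voom on recovered reads also called 0. In LPS culture 5 of 6 passed between day 4 and day 0 against 58.0% of 20331 genes, and 2 of 6 between day 7 and day 4 against 8.40%.

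The kappa constant rose late in both feeder cultures. In TLR cells Igkc stood at 15.78, 15.80 and 15.98 at day 0, at 16.65, 16.46 and 15.87 at day 4, at 21.30, 21.78 and 21.26 at day 7, and at 22.99, 22.65 and 22.68 at day 10. Day 4 and day 0 overlapped (0.47, adjusted p = 0.303), every day 7 library was above both, and every day 10 library was above day 7. Igkc rose by 5.12 ± 0.36 between day 7 and day 4 of TLR culture, which is 34.8-fold (SE, adjusted p = 5.3e-09), and by 1.33 ± 0.36 between day 10 and day 7 (adjusted p = 0.0309). The second call was lost when any of the 6 libraries other than TLR day 7 replicate 2 was left out, with adjusted p up to 0.114, with only the compared groups in the fit (adjusted p = 0.127), and when values were scaled to all reads (0.75, adjusted p = 0.185) or to reads outside immunoglobulin genes (1.40, adjusted p = 0.0877). Between TLR day 10 and day 0 Igkc rose by 6.92 ± 0.36. Summed normalised reads of 10 myeloid markers were 8853, 54126 and 12395 in replicates 1, 2 and 3 of TLR day 10, against 3001 to 4764 at day 7, and 5 of the 10 rose between these days. The part of myeloid RNA in the TLR day 10 values of Igkc, Iglc1 and Vpreb3 was not tested.

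BCR culture gave 15.45, 15.68 and 15.32 for Igkc at day 4, 19.99, 20.50 and 21.16 at day 7, and 21.61, 20.36 and 21.99 at day 10. Day 7 lay clear of day 4, with a rise of 5.07 ± 0.36 or 33.5-fold (adjusted p = 8.78e-09), and day 10 overlapped day 7. Day 4 lay under day 0 without passing (-0.37, adjusted p = 0.423), and between day 10 and day 0 Igkc rose by 5.47. Between BCR day 10 and day 7 the differences were 0.77 for Igkc, 0.82 for Iglc1, -0.18 for Iglc2, 0.77 for Iglc3, 0.087 for Jchain and 0.39 for Vpreb3, with adjusted p of 0.0556 for Iglc1 and from 0.162 to 0.923 for the others. Scaled to all reads, Iglc2 was lower at BCR day 10 than at day 7 (-0.57, adjusted p = 0.0136). Replicate 2 of BCR day 10 held the low value of its group. Without replicate 2, Igkc was 1.25 higher at day 10 than at day 7 (adjusted p = 0.0139), and Iglc1 and Iglc3 were also called, each by 1.16 (adjusted p = 0.00818 and 0.0392); without BCR day 7 replicate 3, Iglc1 alone was called (0.99, adjusted p = 0.0486). Summed reads of the myeloid markers were 159861, 132164 and 19716 in replicates 1, 2 and 3 of BCR day 10, against 4051 to 9000 at day 7, and 9 of the 10 markers rose. Without replicates 1 and 2 together, only replicate 3 was left at BCR day 10, so that group had no spread of its own. In that fit Igkc, Iglc1 and Iglc3 were 1.44, 1.53 and 2.15 higher at BCR day 10 than at day 7. The part of myeloid RNA in these values was not tested further.

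In LPS culture Igkc was above day 0 at day 4, a comparison in which labelled sex and age differ too. Wild type LPS cells held Igkc at 19.20, 19.20 and 19.41 at day 4 and at 20.49, 20.73 and 21.04 at day 7. The day 4 values were 3.42 ± 0.34 above day 0, a 10.7-fold rise (adjusted p = 3.73e-10), and the day 7 values were 1.48 ± 0.34 above day 4 (adjusted p = 0.00439). With only the compared groups in the fit the day 7 call was lost (adjusted p = 0.89). The LPS and feeder cultures of wild type cells were not tested against each other, because labelled sex, age and depth class go with the culture.

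Of the lambda constants, Iglc2 and Iglc3 fell by day 4 of TLR culture, and Iglc1 was not called. Iglc1 in TLR culture stood at 12.19, 12.30 and 12.17 at day 0, at 12.20, 12.22 and 11.59 at day 4, at 16.83, 17.38 and 16.92 at day 7, and at 18.45, 18.29 and 18.07 at day 10. It overlapped day 0 at day 4 (-0.22, adjusted p = 0.559) and then rose by 5.04 ± 0.28 between day 7 and day 4 (32.9-fold, adjusted p = 3.69e-10) and by 1.23 ± 0.28 between day 10 and day 7 (adjusted p = 0.0113). The day 10 call was lost without TLR day 7 replicate 1 (1.12, adjusted p = 0.0564) or replicate 3 (1.17, adjusted p = 0.0531), and with values scaled to all reads (0.65, adjusted p = 0.0556). Iglc2 stood at 13.28, 13.40 and 13.33 at day 0, at 12.35, 12.21 and 11.99 at day 4, at 16.35, 16.42 and 16.22 at day 7, and at 16.72, 16.26 and 16.52 at day 10. Every TLR day 4 library of Iglc2 was below every day 0 library, and day 10 overlapped day 7 (0.17, adjusted p = 0.645). Iglc2 fell by 1.15 between day 4 and day 0 (SE 0.19, adjusted p = 6.43e-05) and rose by 4.15 ± 0.19 between day 7 and day 4 (17.7-fold, adjusted p = 5.88e-11).

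Iglc3 followed Iglc2 down at day 4. Its TLR values were 12.88, 13.02 and 12.91 at day 0, 11.58, 11.39 and 11.46 at day 4, 15.22, 15.19 and 15.04 at day 7, and 15.79, 15.88 and 15.87 at day 10. It fell by 1.46 between day 4 and day 0 (SE 0.36, adjusted p = 0.00256), and rose by 3.67 ± 0.36 between day 7 and day 4 (12.8-fold, adjusted p = 2.98e-07). The day 10 libraries were all above day 7, but the difference of 0.70 did not pass (adjusted p = 0.269), though it did with only the compared groups in the fit (adjusted p = 0.0436). Between TLR day 10 and day 0 the rises were 6.05 for Iglc1, 3.16 for Iglc2 and 2.91 for Iglc3.

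BCR culture gave the same calls for the lambda genes at day 4. Iglc1 stood at 11.93, 11.89 and 11.91 at day 4, just under its day 0 values and not called (-0.31, adjusted p = 0.384; 0.0245 with only the compared groups in the fit), while Iglc2 at 12.12, 11.85 and 12.05 and Iglc3 at 11.34, 11.06 and 11.52 lay under theirs. Iglc2 fell by 1.33 (adjusted p = 1.19e-05) and Iglc3 by 1.63 (adjusted p = 0.000968) between BCR day 4 and day 0. Between BCR day 7 and day 4 the rises were 4.73 for Iglc1, 3.51 for Iglc2 and 3.20 for Iglc3, and between BCR day 10 and day 0 they were 5.24, 2.00 and 2.34. Day 10 held 17.43, 16.77 and 18.17 for Iglc1, 15.45, 14.87 and 15.70 for Iglc2 and 14.68, 14.50 and 16.66 for Iglc3, where replicate 3 stood far above the other two for Iglc3.

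Wild type LPS cells at day 4 held Iglc1 at 14.63, 14.52 and 14.98, which was 2.49 ± 0.35 above day 0 (5.62-fold, adjusted p = 4.13e-07). Iglc2 at 14.19, 14.09 and 14.43 was 0.90 ± 0.26 above day 0 (adjusted p = 0.00347), and Iglc3 at 12.51, 12.53 and 12.85 lay just under its day 0 libraries without passing the test (-0.31, adjusted p = 0.499). At day 7 of wild type LPS culture no lambda gene was called against day 4: Iglc1 read 14.80, 15.35 and 16.06, Iglc2 14.60, 14.05 and 15, and Iglc3 12.73, 12.67 and 13.74. The differences were 0.69, 0.31 and 0.42, with adjusted p from 0.261 to 0.602.

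Every cultured wild type group had a higher mean ratio of kappa to lambda constant reads than day 0 B cells. The ratio of Igkc reads to the summed reads of the 3 lambda constants was 2.59 ± 0.253 at day 0, and in TLR culture it was 7.14 ± 0.987 at day 4, 11.3 ± 0.808 at day 7 and 15.3 ± 0.860 at day 10 (SD, n = 3 each). On the log2 scale every TLR library was above every library of the day before it. In BCR culture the ratio was 4.44 ± 0.924 at day 4, 9.02 ± 1.89 at day 7 and 10.1 ± 2.50 at day 10, with overlap between days 7 and 10. Wild type LPS cells reached 12.1 ± 0.792 at day 4 and 23.3 ± 4.07 at day 7, the highest mean of the 15 groups. Ratios of recovered reads need no scaling between libraries. With 3 libraries a group the exact permutation test cannot give a two-sided p under 0.10, so no ratio difference could pass a threshold of 0.05, and ratios are reported by their spread.

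Expressed as reads per kilobase, lambda made up 31.2 ± 2.06% of light chain constant RNA at day 0. That share was 14.2 ± 1.78% at day 4, 9.44 ± 0.591% at day 7 and 7.11 ± 0.383% at day 10 of TLR culture, and 21.2 ± 3.26%, 11.7 ± 1.96% and 10.7 ± 2.18% at the same days of BCR culture. It was 8.84 ± 0.530% at day 4 and 4.87 ± 0.874% at day 7 of wild type LPS culture (SD, n = 3 each).

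**Figure D2:**
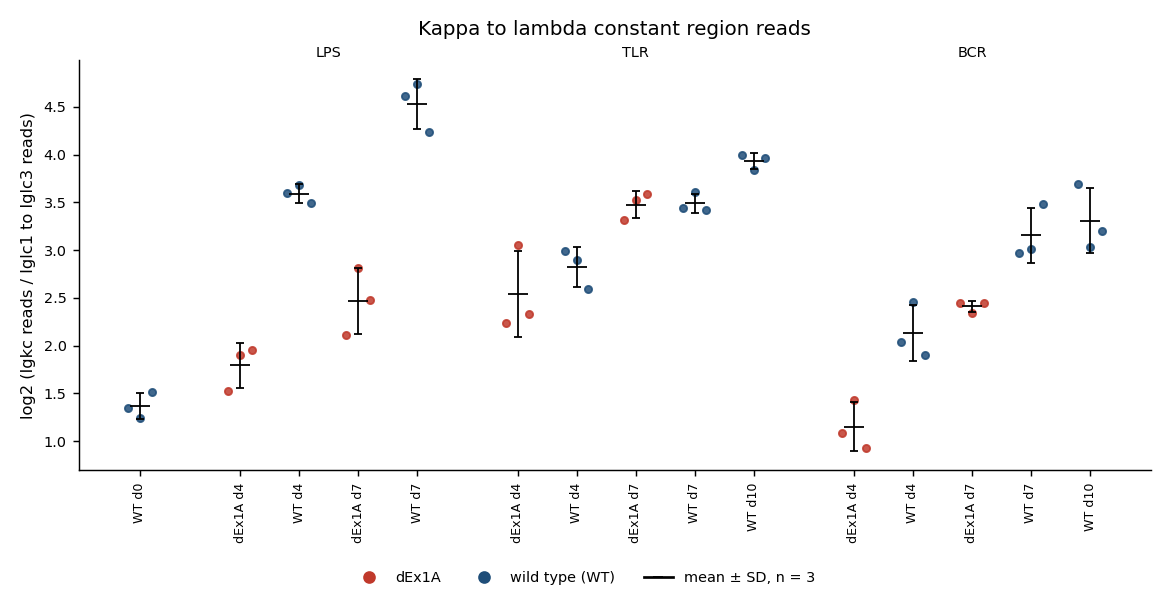
Log2 of Igkc reads over the summed reads of Iglc1, Iglc2 and Iglc3 (vertical axis) by culture, genotype and day (horizontal axis); points are libraries and black bars the mean ± SD of 3. In LPS culture dEx1A libraries lie between 1.53 and 2.81 and wild type libraries between 3.50 and 4.74, and in TLR culture the genotypes overlap.

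The share of Iglc1 within lambda was higher on each later day of feeder culture. Per kilobase, Iglc1 was 20.8 ± 0.359% of lambda constant RNA at day 0, against 35.5 ± 4.19%, 53.3 ± 4.40% and 67.6 ± 2.95% at days 4, 7 and 10 of TLR culture and 36.8 ± 2.46%, 59.3 ± 2.86% and 68.2 ± 3.07% at the same days of BCR culture. Iglc2 was 19.7 ± 2.48% of it in TLR cells at day 10 and 44.8 ± 0.435% at day 0, and Iglc3 was 12.7 ± 1.62% in TLR cells at day 10 and 34.4 ± 0.201% at day 0. In log2 terms Iglc1 over Iglc2 was -1.12 ± 0.04 at day 0, -0.18 ± 0.21 at day 4, 0.71 ± 0.24 at day 7 and 1.77 ± 0.24 at day 10 of TLR culture (SD, n = 3 each), without overlap between any of these days. The ratio of Igkc to Iglc1 alone moved less: its log2 averaged 3.64 at day 0, 4.33 at day 4, 4.40 at day 7 and 4.50 at day 10 of TLR culture, and days 4, 7 and 10 overlapped step by step.

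**Figure D3:**
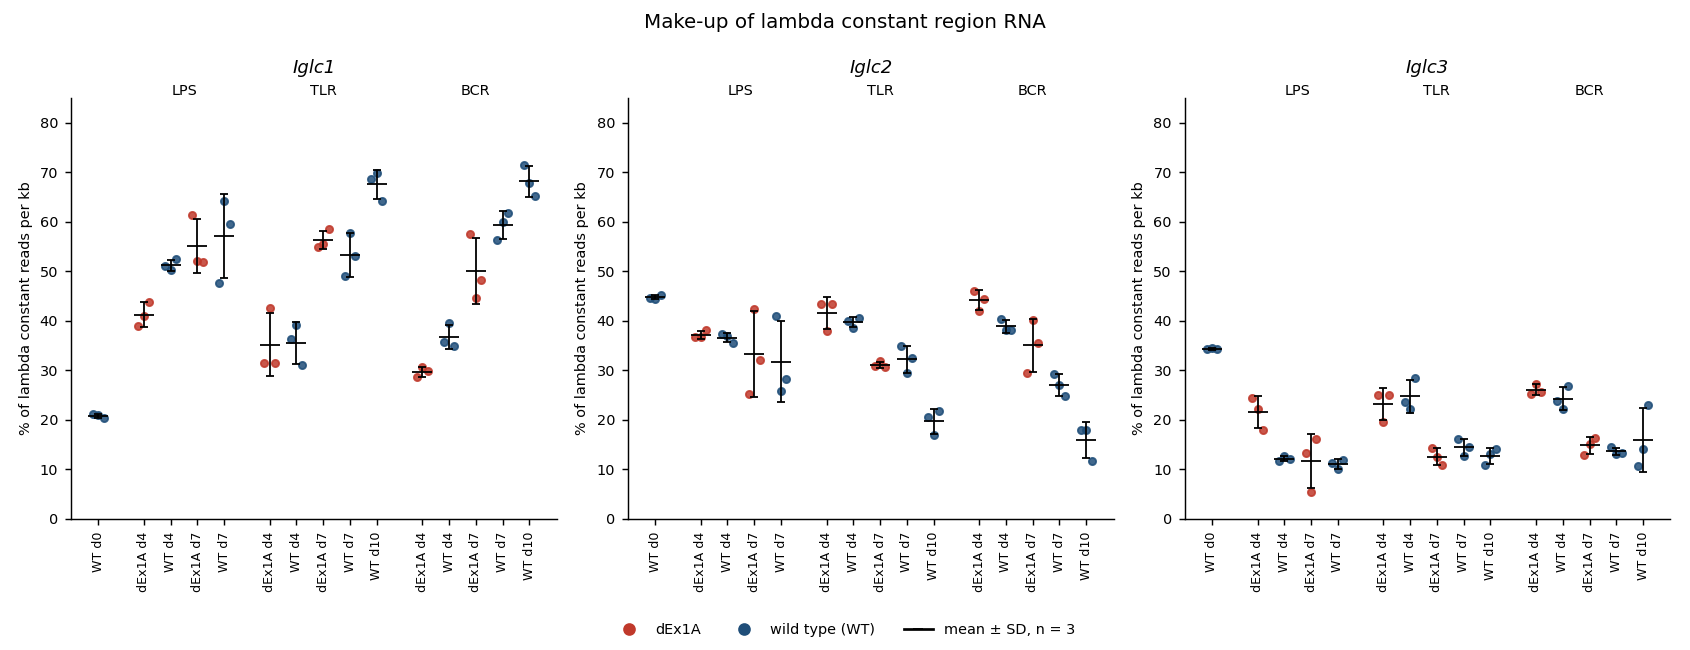
Share of lambda constant RNA, in percent of reads per kilobase (vertical axis), held by Iglc1, Iglc2 and Iglc3 in each of the 15 groups (horizontal axis); points are libraries and black bars the mean ± SD of 3. The Iglc1 share is 67.6% in TLR cells at day 10 and 20.8% at day 0.

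Among the lambda variable genes the share of Iglv1 was also higher on each later day of TLR culture. Iglv1 was 80.5 ± 1.82% of the summed reads of Iglv1, Iglv2 and Iglv3 in TLR cells at day 10 and 52.6 ± 1.39% at day 0 (SD, n = 3 each). In between it was 55.8 to 58.0% at day 4 and 70.2 to 72.3% at day 7. Which constant gene each variable gene was joined to was not tested, so this share is no check of the Iglc1 share. Of 12 kappa and lambda segments listed beside the constants, 6 were in the table, and limma tested 5 of them in wild type cells. Of these 4 rose and 0 fell between TLR day 7 and day 4, where 36.3% of all genes were called, with a list median of 4.20 beside a median of -0.06 over all genes. Iglv1 rose by 5.39 ± 0.29 (adjusted p = 2.57e-10) and Iglv2 by 4.69 ± 0.21 (adjusted p = 5.1e-11), while Igkj2 differed by 0.59 (adjusted p = 0.0543).

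Jchain had the widest span of the 6 genes. It stood at 8.88, 9.81 and 9.69 at day 0, and in TLR culture at 12.22, 12.01 and 12.57 at day 4, 20.52, 19.94 and 20 at day 7, and 19.67, 19.98 and 20.48 at day 10. Days 0, 4 and 7 were clear of each other, and day 10 overlapped day 7 (-0.11, adjusted p = 0.908). Jchain rose by 2.81 ± 0.41 between TLR day 4 and day 0 (7.00-fold, adjusted p = 1.75e-05) and by 7.89 ± 0.41 between day 7 and day 4 (237-fold, adjusted p = 1.66e-10). In BCR culture it stood at 11.58, 11.03 and 12.48 at day 4, 18.81, 18.47 and 18.90 at day 7, and 18.61, 18.01 and 19.82 at day 10, again with its large step between day 4 and day 7. That step was 7.03 ± 0.41, or 131-fold (adjusted p = 7.42e-10), after a rise of 2.24 between BCR day 4 and day 0 (adjusted p = 0.000174). At day 10 Jchain was above day 0 by 10.58 in TLR culture and 9.35 in BCR culture, and both passed. Wild type LPS cells already held 16.30, 16.22 and 16.37 at day 4, which was 6.84 ± 0.41 or 114-fold above day 0 (adjusted p = 4.78e-15), and 18.03, 18.26 and 18.61 at day 7, a further 2.00 ± 0.41 (adjusted p = 0.00175; 0.0523 with only the compared groups in the fit).

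The ratio of Igkc to Jchain was lowest at day 7 of TLR culture. Per kilobase there were 234 ± 80.2 normalised Igkc reads for 1 Jchain read at day 0, against 46.6 ± 18.0 at day 4, 6.71 ± 2.47 at day 7 and 18.3 ± 7.20 at day 10 of TLR culture (SD, n = 3 each). The log2 ratio was 1.44 ± 0.45 higher at TLR day 10 than at day 7 (SE), with no overlap between 2.20 to 3.32 and 0.78 to 1.84 and an exact p of 0.1. In BCR culture the same step was 0.68 ± 0.41 with overlapping libraries (exact permutation p = 0.2).

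**Figure D4:**
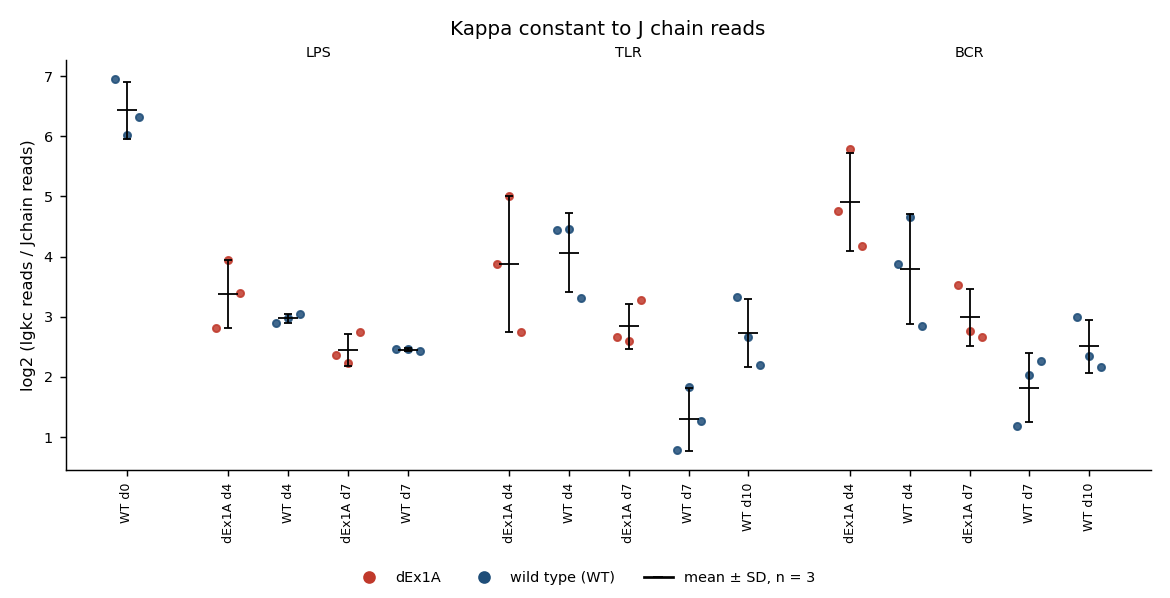
Log2 of Igkc reads over Jchain reads (vertical axis) by culture, genotype and day (horizontal axis); points are libraries and black bars the mean ± SD of 3. The ratio is lowest in wild type TLR cells at day 7, between 0.78 and 1.84, and highest at day 0, between 6.02 and 6.95.

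Vpreb3 did not follow the antibody genes. It stood at 9.55, 9.62 and 9.68 at day 0, and in TLR culture at 8.96, 9.02 and 8.17 at day 4, 8.71, 9.26 and 8.83 at day 7, and 11.28, 10.31 and 10.38 at day 10. Day 10 lay above day 7 and day 0, and days 4 and 7 lay below day 0. Day 7 differed from day 4 by 0.22 (adjusted p = 0.679). Vpreb3 rose by 1.72 ± 0.35 between TLR day 10 and day 7 (adjusted p = 0.00532), and by 1.04 between day 10 and day 0 (adjusted p = 0.0229); the second of these was lost without TLR day 10 replicate 1 (0.73, adjusted p = 0.119), day 0 replicate 1 (1.01, adjusted p = 0.0614) or day 0 replicate 2 (1.04, adjusted p = 0.0527), was not called when scaled to reads outside immunoglobulin genes (0.93, adjusted p = 0.0591), and was -0.39 when scaled to all reads. It fell by 0.90 between TLR day 4 and day 0 (adjusted p = 0.0441), a call that was lost under the replicate block (adjusted p = 0.0566), without the filter on low values (0.0618), with scaling to reads outside immunoglobulin genes (0.0695) and when any of the 5 libraries other than TLR day 4 replicate 2 was left out (adjusted p up to 0.195).

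In BCR culture Vpreb3 stood at 8.15, 8.52 and 7.75 at day 4, at 9.13, 9.54 and 9.99 at day 7 and at 10.32, 9.04 and 10.46 at day 10. It fell by 1.48 between day 4 and day 0 (adjusted p = 0.00198) and rose by 1.41 ± 0.35 between day 7 and day 4 (adjusted p = 0.00512), and day 10 overlapped day 0 (0.32, adjusted p = 0.467). Wild type LPS cells held 10.75, 10.82 and 10.97 at day 4 and 10.39, 10.92 and 11.20 at day 7, all above day 0. The day 4 rise was 1.23 ± 0.27 (adjusted p = 0.000263), and day 7 differed from day 4 by -0.010. The surrogate light chain genes Vpreb1, Vpreb2 and Igll1 stood near the floor throughout the wild type groups, with group means of 3.04 to 3.88. Summed reads of 5 precursor B cell markers were at most 52.1 in the cultures and 73.0 to 159 at day 0, and Igll1 was at 0 in all 3 day 0 libraries.

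Set against BCR culture, TLR culture held more of the kappa constant and of Iglc2 at day 10. At day 4 limma called 0 of 6 genes, against 7.57% of all genes; Igkc alone had an unadjusted p below 0.05, and voom on recovered reads also called 0. The day 4 differences were 0.84 for Igkc, 0.093 for Iglc1, 0.18 for Iglc2, 0.17 for Iglc3, 0.57 for Jchain and 0.58 for Vpreb3. At day 7 it called 2 of 6 against 6.27%, and at day 10 also 2 of 6 against 14.4%. Iglc2 was 0.81 ± 0.19 higher in TLR cells than in BCR cells at day 7 (adjusted p = 0.0152) and 1.16 ± 0.19 higher at day 10 (adjusted p = 0.00123). Jchain was 1.43 ± 0.41 higher in TLR cells at day 7 (adjusted p = 0.0457), and Igkc was 1.45 ± 0.36 higher in TLR cells at day 10, or 2.74-fold (adjusted p = 0.0157). The genes that did not pass at day 7 were Igkc at 0.90, Iglc1 at 0.40, Iglc3 at 0.64 and Vpreb3 at -0.62 (adjusted p from 0.17 to 0.461), and at day 10 Iglc1 at 0.81, Iglc3 at 0.57 and Vpreb3 at 0.72 (adjusted p from 0.0619 to 0.326). At day 10 same-numbered TLR and BCR libraries deviated together, a pairing read from the data and not given by the labels. With the replicate block Jchain was called as well, at 1.23 with an adjusted p of 0.0229 in place of 0.0522.

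Both day 7 calls of TLR over BCR culture were lost when values were scaled to all reads (0.38 for Iglc2 and 0.99 for Jchain) or to reads outside immunoglobulin genes (0.61 and 1.22). Correcting for GC content and length also ended the Iglc2 call (0.70, adjusted p = 0.0579). Leaving the filter off (adjusted p = 0.068) or using voom (adjusted p = 0.0508) ended the Jchain call. The Jchain call was lost without any 1 of the 6 libraries, with adjusted p from 0.0762 to 0.199. The Iglc2 call was lost without TLR replicate 1 (0.80, adjusted p = 0.067), TLR replicate 2 (0.77, adjusted p = 0.0575) or BCR replicate 1 (0.69, adjusted p = 0.0783). At day 10 the Igkc call was lost without BCR replicate 2 (0.97, adjusted p = 0.0938) or TLR replicate 1 (1.35, adjusted p = 0.0658), and when scaled to all reads (0.83, adjusted p = 0.113). With only the compared groups in the fit neither Igkc (adjusted p = 0.746) nor Iglc2 (adjusted p = 0.343) was called at day 10, and after correction for GC content and length Iglc1 (1.00, adjusted p = 0.0279) and Jchain (1.33, adjusted p = 0.012) were called as well. Without BCR replicates 1 and 2, which hold most of the myeloid marker reads, only replicate 3 was left in the BCR day 10 group. The differences were then 0.78 for Igkc and 0.80 for Iglc2. Without BCR day 10 replicate 3, 5 of 6 genes were called, Iglc1 at 1.17, Iglc3 at 1.26 and Jchain at 1.73 among them.

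The change of the TLR to BCR difference was tested as an interaction. From day 4 to day 7 limma called 0 of 6 genes, against 1.69% of genes, with 2 at an unadjusted p below 0.05, and from day 7 to day 10 it called 0 of 6 against 0.0667%, with 1 at an unadjusted p below 0.05. Voom on recovered reads called 0 in both. From day 4 to day 7 the values were 0.053 for Igkc, 0.31 for Iglc1, 0.64 for Iglc2, 0.47 for Iglc3, 0.86 for Jchain and -1.20 for Vpreb3, the last of which passed when scaled to all reads (-1.61, adjusted p = 0.0431). From day 7 to day 10 they were 0.56 for Igkc, 0.41 for Iglc1, 0.35 for Iglc2, -0.073 for Iglc3, -0.20 for Jchain and 1.34 for Vpreb3. The log2 ratio of kappa to lambda was 0.70 ± 0.21 higher in TLR cells than in BCR cells at day 4 and 0.63 ± 0.20 higher at day 10, without overlap, and 0.34 ± 0.18 higher at day 7 with overlap (SE; exact permutation p = 0.1, 0.1 and 0.3).

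Between dEx1A and wild type cells, light chain constants passed the test in LPS and BCR culture and none did in TLR culture at day 4 or day 7; whether the cultures differ in this was not tested. In LPS culture at day 4, 3 of the 6 genes differed between dEx1A and wild type cells, where 24.4% of genes did, and all 3 were lower in dEx1A. Igkc stood at 16.63, 16.56 and 17.52 in dEx1A LPS cells, against 19.20, 19.20 and 19.41 in wild type LPS cells. Jchain stood at 13.82, 12.62 and 14.13 in dEx1A LPS cells, against 16.30, 16.22 and 16.37 in wild type LPS cells. For both genes the highest dEx1A library was more than 1 unit under the lowest wild type library. Igkc was 5.16-fold lower (-2.37 ± 0.34, adjusted p = 3.83e-06) and Jchain 6.84-fold lower (-2.77 ± 0.41, adjusted p = 7.16e-06).

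No lambda gene passed between dEx1A and wild type LPS cells at day 4. Iglc1 stood at 13.74, 13.37 and 14.38 in dEx1A LPS cells against 14.63, 14.52 and 14.98 in wild type LPS cells, a difference of -0.88 that did not pass (adjusted p = 0.066) but passed after correction for GC content and length (-0.98, adjusted p = 0.0271) and without dEx1A replicate 3 (-1.16, adjusted p = 0.0287). Iglc2 at 13.67, 13.22 and 14.19 overlapped the wild type values of 14.19, 14.09 and 14.43 (-0.54, adjusted p = 0.125), and it passed under the same 2 settings. Iglc3 at 13.06, 12.48 and 13.09 overlapped the wild type values of 12.51, 12.53 and 12.85 (0.25, adjusted p = 0.693).

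By day 7 of LPS culture 4 of the 6 genes differed, against 7.08% of genes, and the direction differed by gene. Here both genotypes carry the same labelled sex and age and lie in the same depth class. Iglc1 stood at 17.35, 16.52 and 17.10 in dEx1A LPS cells against 14.80, 15.35 and 16.06 in wild type LPS cells, without overlap. Iglc2 stood at 16.08, 16.24 and 16.42 in dEx1A LPS cells against 14.60, 14.05 and 15 in wild type LPS cells, without overlap. Iglc1 was 3.00-fold higher in dEx1A (1.59 ± 0.35, adjusted p = 0.0028) and Iglc2 3.24-fold higher (1.70 ± 0.26, adjusted p = 1.94e-05).

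Iglc3 at LPS day 7 stood at 15.13, 13.28 and 15.41 in dEx1A cells against 12.73, 12.67 and 13.74 in wild type cells, where dEx1A replicate 2 fell inside the wild type range. It was 1.56 ± 0.36 higher in dEx1A cells (adjusted p = 0.00476), and the call was lost without dEx1A replicate 1 (1.30, adjusted p = 0.0501) or replicate 3 (1.16, adjusted p = 0.0715). Igkc at 20.17, 20.28 and 20.53 in dEx1A LPS cells overlapped 20.49, 20.73 and 21.04 in wild type LPS cells, with a difference of -0.43 and a 95% interval of -1.12 to 0.26. Jchain at 17.81, 18.05 and 17.79 overlapped 18.03, 18.26 and 18.61, with a difference of -0.42 and an interval of -1.26 to 0.43. When the fit held only the 2 groups compared, 1 of the 4 calls remained, that of Vpreb3.

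Kappa over lambda was thus lower in dEx1A LPS cells at both days. The read ratio was 3.50 ± 0.536 in dEx1A LPS cells against 12.1 ± 0.792 in wild type LPS cells at day 4, and 5.64 ± 1.35 in dEx1A LPS cells against 23.3 ± 4.07 in wild type LPS cells at day 7 (SD, n = 3 each). The log2 differences were -1.80 ± 0.14 and -2.06 ± 0.25 (SE), with no overlap at either day and the smallest exact permutation p that this design allows, 0.1. The lambda share of light chain constant RNA per kilobase was 17.6 ± 3.51% in dEx1A LPS cells against 4.87 ± 0.874% in wild type LPS cells at day 7. Among the lambda variable genes at LPS day 7, Iglv2 was 2.67 ± 0.37 higher in dEx1A cells (adjusted p = 4.3e-06) and Iglv1 1.85 ± 0.34 higher (adjusted p = 0.000345), while Iglv3 differed by 0.76 (adjusted p = 0.415).

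Vpreb3 was lower in dEx1A LPS cells at both days. At day 4 it stood at 8.74, 9.59 and 9.41 in dEx1A cells against 10.75, 10.82 and 10.97 in wild type cells, and at day 7 at 7.65, 8.37 and 7.92 in dEx1A cells against 10.39, 10.92 and 11.20 in wild type cells. No library overlapped at either day. The differences were -1.60 ± 0.27 at day 4 (3.03-fold lower, adjusted p = 5.01e-05) and -2.86 ± 0.27 at day 7 (7.24-fold lower, adjusted p = 2.97e-09).

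The genotype difference in LPS culture changed between days 4 and 7 for 5 of the 6 genes, where 5.48% of genes passed the same interaction test. It moved upward by 1.94 for Igkc (adjusted p = 0.0122), 2.47 for Iglc1 (adjusted p = 0.00273), 2.24 for Iglc2 (adjusted p = 0.000335) and 2.36 for Jchain (adjusted p = 0.0128), and downward for Vpreb3, at -1.26 (adjusted p = 0.049). Iglc3 had 1.31 (adjusted p = 0.141), and 1.98 without dEx1A LPS day 7 replicate 2 (adjusted p = 0.00559), and it passed with the block and correction for length and GC content together (1.47, adjusted p = 0.0327). With only the compared groups in the fit Igkc was not called (adjusted p = 0.256). The Jchain call was lost without dEx1A LPS day 4 replicate 2 (1.91, adjusted p = 0.0551), and the Vpreb3 call without any 1 of 9 of the 12 libraries, with adjusted p up to 0.128. The Vpreb3 call was also lost with only the compared groups in the fit, without the filter, with voom, with log2 of reads plus 1 and with scaling to reads outside immunoglobulin genes (adjusted p from 0.0503 to 0.0797).

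**Figure D5:**
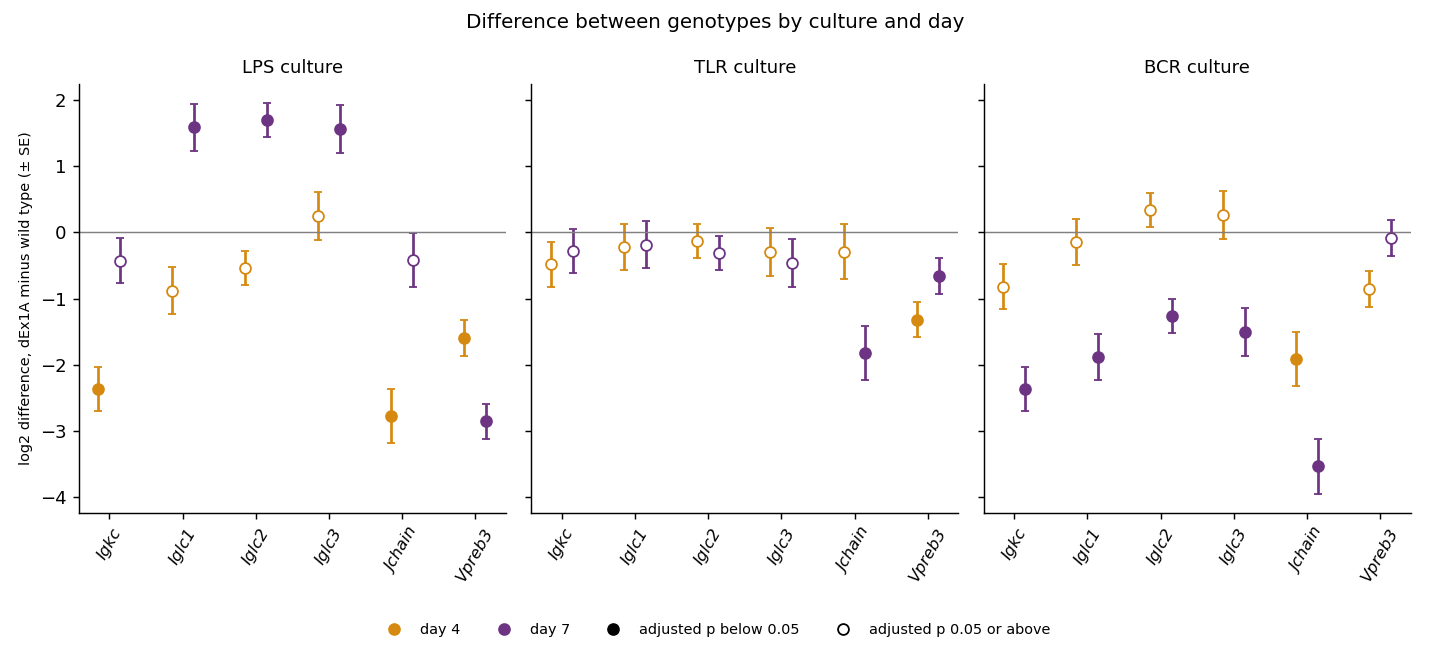
Log2 difference of dEx1A minus wild type (vertical axis, with the SE from limma) for the 6 genes (horizontal axis) in each culture at days 4 and 7, filled where the adjusted p is below 0.05. In LPS culture at day 7 the 3 lambda genes lie between 1.56 and 1.70 while Igkc and Jchain lie at -0.43 and -0.42, and in BCR culture at day 7 Igkc, the lambda genes and Jchain lie between -3.54 and -1.26.

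In TLR culture the genotypes differed in few of these genes. At day 4, 1 of 6 genes passed, against 7.23% of genes: Vpreb3 stood at 7.49, 7.67 and 7.04 in dEx1A TLR cells against 8.96, 9.02 and 8.17 in wild type TLR cells, without overlap and with a difference of -1.32 (adjusted p = 0.00245; 0.142 with only the compared groups in the fit). The other 5 overlapped between genotypes at day 4, with differences of -0.48 for Igkc, -0.22 for Iglc1, -0.13 for Iglc2, -0.29 for Iglc3 and -0.29 for Jchain (adjusted p from 0.41 to 0.811). At day 7, 2 of 6 passed, against 54.8% of genes. Jchain stood at 18.39, 18.11 and 18.48 in dEx1A TLR cells against 20.52, 19.94 and 20 in wild type TLR cells, a 3.55-fold lower level (-1.83 ± 0.41, adjusted p = 0.000419). After correction for GC content and length the Jchain difference was -0.86, with an adjusted p of 0.0607, and of 0.0267 when the replicate block was added. Cell type markers differed too at TLR day 7. Summed reads were 125881 to 140796 in dEx1A cells against 160395 to 175009 in wild type cells for the plasma cell markers, 28590 to 31039 against 52176 to 57371 for 6 B cell markers, 6436 to 10322 against 3001 to 4764 for the myeloid markers, and 606 to 683 against 69.8 to 197 for 8 fibroblast markers, of which Col3a1 was at 0 in both genotypes. Their part in the Jchain and Vpreb3 differences was not tested.

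Vpreb3 at TLR day 7 differed by -0.65, at 8.31, 7.98 and 8.55 in dEx1A cells against 8.71, 9.26 and 8.83 in wild type cells (adjusted p = 0.0416), and the call was lost without dEx1A replicate 1 or 2 or wild type replicate 2 or 3 (adjusted p = 0.0585 to 0.173), and also without the filter, with voom and with scaling to all reads or to reads outside immunoglobulin genes (adjusted p = 0.0535 to 0.187). Igkc at 21.05, 20.70 and 21.75 in dEx1A TLR cells overlapped 21.30, 21.78 and 21.26 in wild type TLR cells at day 7, with a 95% interval of the difference of -0.97 to 0.41. Iglc1 at 16.87, 16.32 and 17.39 and Iglc2 at 16.05, 15.53 and 16.47 in dEx1A cells also overlapped wild type, with differences of -0.18 and -0.31. Iglc3 did not overlap, at 14.92, 14.17 and 14.96 in dEx1A TLR cells against 15.22, 15.19 and 15.04 in wild type TLR cells, and its difference of -0.47 did not pass (adjusted p = 0.291). The log2 ratio of kappa to lambda was 3.47 ± 0.14 in dEx1A TLR cells and 3.49 ± 0.10 in wild type TLR cells at day 7 (SD, n = 3 each). Kappa over Jchain was 1.55 ± 0.37 higher in dEx1A TLR cells on the log2 scale at day 7 (SE), without overlap (exact permutation p = 0.1).

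BCR culture at day 4 had 1 of 6 genes past the test, against 1.86% of genes. Jchain stood at 10.05, 8.95 and 10.36 in dEx1A BCR cells against 11.58, 11.03 and 12.48 in wild type BCR cells, without overlap (-1.91 ± 0.41, adjusted p = 0.00698). The call was lost without wild type replicate 3 (-1.52, adjusted p = 0.0893) or dEx1A replicate 2 (-1.49, adjusted p = 0.118), and with only the compared groups in the fit (adjusted p = 0.267). Igkc at 14.78, 14.69 and 14.52 in dEx1A BCR cells lay under 15.45, 15.68 and 15.32 in wild type BCR cells, but the difference of -0.82 did not pass (adjusted p = 0.325). Vpreb3 at 7.53, 7.25 and 7.07 in dEx1A BCR cells lay under 8.15, 8.52 and 7.75 in wild type BCR cells without passing (-0.86, adjusted p = 0.125), and it passed after correction for GC content and length (-0.88, adjusted p = 0.00848) and when scaled to all reads (-0.94, adjusted p = 0.0442). The lambda genes overlapped between genotypes at BCR day 4, at -0.15 for Iglc1, 0.34 for Iglc2 and 0.26 for Iglc3.

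At day 7 of BCR culture 5 of 6 genes passed, against 50.8% of genes, and all 5 were lower in dEx1A. Igkc stood at 18.91, 17.16 and 18.47 in dEx1A BCR cells against 19.99, 20.50 and 21.16 in wild type BCR cells, and Jchain at 15.38, 14.39 and 15.80 in dEx1A BCR cells against 18.81, 18.47 and 18.90 in wild type BCR cells. Replicate 2 was the lowest dEx1A library for both, and no dEx1A library reached a wild type one. Jchain was 11.6-fold lower (-3.54 ± 0.41, adjusted p = 3.27e-08) and Igkc 5.17-fold lower (-2.37 ± 0.34, adjusted p = 1.01e-06).

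All 3 lambda genes were also lower in dEx1A BCR cells at day 7. Iglc1 stood at 15.66, 13.65 and 14.97 in dEx1A BCR cells against 16.19, 16.75 and 16.98 in wild type BCR cells at day 7, Iglc2 at 14.71, 13.51 and 14.54 against 15.26, 15.61 and 15.68, and Iglc3 at 13.50, 12.09 and 13.41 against 14.23, 14.55 and 14.75. The differences were -1.88 (adjusted p = 5.46e-05), -1.26 (adjusted p = 0.000158) and -1.51 (adjusted p = 0.000988). Vpreb3 at 9.93, 9.19 and 9.27 in dEx1A BCR cells overlapped 9.13, 9.54 and 9.99 in wild type BCR cells (-0.090, adjusted p = 0.806). After correction for GC content and length Vpreb3 was lower in dEx1A BCR cells (-0.50, adjusted p = 0.034). The log2 ratio of kappa to lambda differed by -0.98 ± 0.22 at day 4 and -0.74 ± 0.17 at day 7 of BCR culture, both without overlap (SE; exact permutation p = 0.1).

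Other RNA moved with these BCR values. Summed reads of 6 plasma cell markers were 42882 to 55420 in dEx1A BCR cells against 82486 to 136376 in wild type BCR cells at day 7, and summed reads of the 8 fibroblast markers were 4944 to 6998 in dEx1A BCR cells against 451 to 543 in wild type BCR cells, with Dcn at 0 in both genotypes. In LPS culture the plasma cell markers were 22463 to 32421 in dEx1A cells against 69738 to 71190 in wild type cells at day 4, and 92714 to 132536 in dEx1A cells against 82755 to 125351 in wild type cells at day 7. The 6 B cell markers summed to 28432 to 42792 in dEx1A and 66299 to 72179 in wild type cells at BCR day 7. At LPS day 4 they summed to 69860 to 77088 in dEx1A and 63798 to 69104 in wild type cells. At LPS day 7 they summed to 44265 to 56191 in dEx1A and 85223 to 97234 in wild type cells. Fibroblast marker reads in LPS culture were at most 28.6 in dEx1A libraries and 16.0 in wild type libraries. The 10 myeloid markers summed to 4096 to 5881 in dEx1A and 2754 to 2938 in wild type cells at LPS day 4. They overlapped at LPS day 7, at 5457 to 8589 in dEx1A and 5897 to 6982 in wild type cells. At BCR day 7 they also overlapped, at 4213 to 18646 in dEx1A and 4051 to 9000 in wild type cells. The part of these cell types in the genotype differences was not tested.

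As in LPS culture, the genotype difference was tested for a change between days 4 and 7. In BCR culture 5 of 6 genes passed, against 33.9% of genes, all downward: Igkc at -1.55 (adjusted p = 0.0131), Iglc1 at -1.73 (adjusted p = 0.00855), Iglc2 at -1.60 (adjusted p = 0.00132), Iglc3 at -1.77 (adjusted p = 0.00944) and Jchain at -1.63 (adjusted p = 0.0309). In TLR culture only Jchain passed, 1 of 6 against 49.4% of genes, at -1.54 (adjusted p = 0.0286). The TLR values of the others were 0.20 for Igkc, 0.037 for Iglc1, -0.18 for Iglc2, -0.18 for Iglc3 and 0.66 for Vpreb3, and Vpreb3 had 0.77 in BCR culture (adjusted p = 0.121). Vpreb3 passed when scaled to all reads, at 1.00 in TLR culture (adjusted p = 0.0295) and 1.17 in BCR culture (adjusted p = 0.013), and in TLR culture also without wild type day 4 replicate 3 (0.94, adjusted p = 0.041). Both Jchain calls were lost after correction for GC content and length, at -0.84 (adjusted p = 0.241) in BCR culture and -0.22 (adjusted p = 0.773) in TLR culture, and when scaled to all reads (adjusted p = 0.0831 and 0.0805). In TLR culture the Jchain call was lost as well with scaling to reads outside immunoglobulin genes (adjusted p = 0.0534). With only the compared groups in the fit Igkc (adjusted p = 0.081), Iglc1 (0.0524) and Jchain (0.0945) were not called in BCR culture. The Igkc call in BCR culture was lost without dEx1A BCR day 7 replicate 2 (-1.04, adjusted p = 0.0565) and when scaled to all reads (-1.12, adjusted p = 0.0729). Leaving out 1 library ended the Jchain call for 7 of 12 libraries in BCR culture (-1.23 to -1.58) and for 5 of 12 in TLR culture (-1.02 to -1.51).

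Within dEx1A cells the 6 genes all changed between day 7 and day 4 of each culture, 6 of 6 against 34.1% of genes in LPS culture, 62.1% in TLR culture and 53.9% in BCR culture. Igkc rose by 3.42, 5.32 and 3.52 in LPS, TLR and BCR culture, and Jchain by 4.36, 6.35 and 5.40. Iglc1 rose by 3.16, 5.08 and 3.00, Iglc2 by 2.55, 3.97 and 1.91, and Iglc3 by 1.73, 3.50 and 1.43 in the same cultures, the Iglc3 rise in LPS culture not being called with only the compared groups in the fit (adjusted p = 0.0975). Vpreb3 rose by 0.88 in TLR culture (0.37 and not called when scaled to all reads) and 2.18 in BCR culture, and fell by 1.27 in LPS culture.

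Among dEx1A cells, Igkc and Jchain were higher in TLR than in BCR culture at both days, and the lambda genes at day 7. At day 4, 2 of 6 genes passed against 16.7% of genes: Igkc was 1.18 ± 0.34 higher in TLR cells (adjusted p = 0.0127) and Jchain 2.19 ± 0.41 higher (adjusted p = 0.000185). The Igkc call was lost without TLR replicate 2 (0.95, adjusted p = 0.0642) or BCR replicate 3 (1.11, adjusted p = 0.0513), and the Jchain call with only the compared groups in the fit (adjusted p = 0.0779). The other 4 overlapped at day 4, with 0.020 for Iglc1, -0.30 for Iglc2, -0.38 for Iglc3 and 0.12 for Vpreb3. At day 7, 6 of 6 passed against 31.5% of genes, with Igkc 2.99 ± 0.34, Iglc1 2.10 ± 0.35, Iglc2 1.76 ± 0.26, Iglc3 1.68 ± 0.36 and Jchain 3.14 ± 0.41 higher in TLR cells than in BCR cells, and Vpreb3 lower, at -1.18 ± 0.27 (adjusted p from 3.32e-08 to 0.00101). With only the compared groups in the fit Igkc (adjusted p = 0.0827), Iglc1 (0.0633) and Iglc3 (0.056) were not called.

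Set against TLR culture, dEx1A LPS cells at day 4 were higher in 6 of 6 genes, where 45.3% of genes differed, by 1.06 for Igkc, 2.05 for Iglc1, 1.64 for Iglc2, 1.69 for Iglc3, 1.55 for Jchain and 1.85 for Vpreb3. The Igkc call was lost without LPS replicate 3 (0.75, adjusted p = 0.105) or TLR replicate 1 (0.88, adjusted p = 0.069), and with only the compared groups in the fit neither Igkc (0.0655) nor Jchain (0.0913) was called. At day 7 limma called 0 of 6, against 17.4% of genes, with Igkc alone at an unadjusted p below 0.05, and voom on recovered reads also called 0. Igkc differed by -0.84 there without overlap (adjusted p = 0.0846), and without dEx1A TLR replicate 2 it passed (-1.07, adjusted p = 0.0443), as it did after correction for GC content and length (-0.89, adjusted p = 0.0473). Jchain differed by -0.44, also without overlap (adjusted p = 0.538), and the overlapping genes by 0.13 for Iglc1, 0.23 for Iglc2, -0.077 for Iglc3 and -0.30 for Vpreb3.

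Heavy chain constants also rose between days 4 and 7. Of 8 heavy chain constant genes, 7 rose and 0 fell between TLR day 7 and day 4, where 36.3% of all genes were called, with a list median of 4.72 beside -0.06 over all genes. Between BCR day 7 and day 4, where 30.5% were called, 7 rose, with a median of 4.95 beside 0.003 over all genes. Ighm, the constant region of IgM, rose by 4.72 ± 0.33 in TLR culture at that step (adjusted p = 4.79e-09). Between TLR day 10 and day 7, Ighg1, Ighg2b, Ighg2c and Ighg3 of the IgG classes rose, by 2.92 for Ighg1 (adjusted p = 0.00448), whereas Ighm fell by 1.26 (adjusted p = 0.025). In dEx1A BCR cells against wild type BCR cells at day 7, 1 of the 8 rose and 6 fell, where 50.8% of all genes were called, with a median of -1.50 beside 0.00 over all genes, and Ighe, the constant region of IgE, was the 1 that rose (2.00 ± 0.29, adjusted p = 1.2e-06). At LPS day 7, where lambda was higher in dEx1A cells, Ighg2c was -3.57 (adjusted p = 1.59e-06), Igha 2.22 (adjusted p = 0.0263) and Ighd 1.53 (adjusted p = 0.0043), and the other 5 did not pass, where 7.08% of all genes were called.

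Folding factors of the endoplasmic reticulum that act on antibody chains rose at both the first and the second step of culture. Of 13 such genes in the table, from a list of 14, 11 rose and 1 fell between TLR day 4 and day 0, with a median of 1.75 beside 0.007 over all genes, and 12 rose and 1 fell between day 7 and day 4, with a median of 2.08. The shares of all genes called at these steps were 48.3% and 36.3%. Mzb1, which assists IgM assembly and J chain addition, rose by 2.77 ± 0.39 between TLR day 4 and day 0 (adjusted p = 1.36e-05), and Txndc5 by 3.89 ± 0.28 between day 7 and day 4 (adjusted p = 6.73e-09). In dEx1A cells against wild type cells, 9 fell and 0 rose at LPS day 4 (median -1.09, all genes 0.00) and at BCR day 7 (median -1.23, all genes 0.00), with 24.4% and 50.8% of all genes called there. The list medians at LPS day 7, TLR day 4 and BCR day 4 were -0.04, 0.0033 and -0.16. At TLR day 7 the 13 genes summed to 348900 to 401691 normalised reads in dEx1A cells against 519733 to 650431 in wild type cells. At LPS day 4 Mzb1 was -1.62 ± 0.30 (adjusted p = 0.000171) and Txndc5 -2.14 ± 0.24 (adjusted p = 5.69e-08).

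Of 15 transcription factors listed for J chain or light chain genes, 4 rose and 8 fell between TLR day 4 and day 0, where 48.3% of all genes were called, with a median of -1.19 beside 0.007 over all genes. Xbp1, the activator of the secretory programme, rose by 3.19 ± 0.28 (adjusted p = 3.38e-08), and Pax5, the repressor of J chain, fell by 1.98 (adjusted p = 1.76e-07). In dEx1A LPS cells against wild type LPS cells at day 4, 4 rose and 6 fell, where 24.4% of all genes were called, with Pax5 up by 0.93 ± 0.21 (adjusted p = 0.00171) and Xbp1 at -1.57 ± 0.17 (adjusted p = 3.44e-08). At LPS day 7, where 7.08% of all genes were called, 1 rose and 1 fell: Irf4, a factor of plasma cell fate, was 0.84 ± 0.18 higher in dEx1A cells (adjusted p = 0.00178) and Prdm1 -1.40 ± 0.28 (adjusted p = 0.000949). In dEx1A BCR cells at day 7, 3 rose and 11 fell (median -0.99, all genes 0.00), where 50.8% of all genes were called.

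The remaining lists were small. The surrogate light chain list held 5 genes, of which limma tested 2 in wild type cells, and both signalling partners of the antibody receptor fell between TLR day 4 and day 0, Cd79a by 2.19 (adjusted p = 0.000188) and Cd79b by 1.66 (adjusted p = 8.81e-06). Cd79a was also -1.54 ± 0.35 in dEx1A LPS cells against wild type LPS cells at day 7 (adjusted p = 0.00361), where Vpreb3 was lower too. The 3 genes listed as binding polymeric antibody, Fcmr, Pigr and Cd5l, all fell between TLR day 4 and day 0, Fcmr by 5.55 (adjusted p = 8.06e-13). At that step 48.3% of all genes were called.

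Over the 15 group means, the genes outside the immunoglobulin loci whose pattern was most like that of each member were sought among 7863 genes spanning at least 2 log2 units. For Igkc these were Gm16174 (Pearson r = 0.984), Ssr4 (0.981), a subunit of the translocon-associated complex, and Creb3l2 (0.978), and for Jchain they were Creb3l2 (0.987), Cpeb3 (0.981) and Ssr4 (0.978). Iglc1 was most like Sdc1 (0.956), the plasma cell surface proteoglycan, Rgcc (0.955) and Gm18561 (0.955). Iglc2 was most like Rgcc (0.982), Sdc1 (0.945) and Txndc11 (0.943), and Iglc3 most like Smad3 (0.958), Atp6v0a2 (0.953) and Gm11423 (0.947). Vpreb3 had no neighbour as close, with Lat at 0.887, Bmf at 0.861 and Prg3 at 0.828. Among the members, r over the same means was 0.979 for Igkc with Jchain and 0.974 for Igkc with Iglc1, and 0.409 to 0.549 for Vpreb3 with the others. These values describe shared patterns in the same libraries and carry no test.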

How the data were processed

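Total RNA of 45 libraries was sequenced with a stranded kit as single reads of 76 bases, per the labels' protocols. The authors deposited 2 tables of variance-stabilised log2 values for 28196 genes, one with 21 wild type columns and one with 39 columns of both genotypes, whose 15 shared columns are identical. The submitters' processing notes name DESeq2 1.22.2 and R 3.5.1, the quantifier RSEM 1.3.0, the aligner STAR 2.6.0c, and the read tools Trim Galore 0.6.0 and FastQC 0.11.8. They list mm10, GRCm38.p6 and GRCh38.p12 as builds and give none of them a role. Gene positions come from the GENCODE annotation of GRCm38.

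Genes at least 1 above the value for no reads (3.04) in at least 3 libraries entered the test (19497 from the wild type table, 20331 from the other) with limma 3.58.1 (R 4.3.3), a fit over all groups of a table with a mean trend, and Benjamini-Hochberg adjustment over all of them. One gene with a value below 3.04 was left out. Wild type feeder culture comparisons used the first table and all others the second. Inverting the transformation gave reads that were whole within 0.1, for values under 20 reads, in 95.4 to 100.0% of cases per library, and these reads serve the depths, shares, ratios and the voom fit. The script was tested on data simulated for dEx1A against wild type LPS cells at day 7, with 200 changed genes. It called 53% of 2-fold and 92% of 4-fold changes, and also 31 unchanged genes. Among genes at 7 or more in all groups it called 97 changed and 3 unchanged genes. With only the compared groups in the fit it called 62 changed and 38 unchanged genes. Calls of genes at low levels are therefore less certain. Ratios were compared by two-sided exact permutation over samples. Sequences and figures used Python 3.11.15, pandas 2.3.3, numpy 2.4.6, Biopython 1.88 and matplotlib 3.10.9.

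The members and lists were chosen with earlier results of these data known. The rule was to name the 6 members in every comparison, the 3 most alike genes for each, and up to 4 genes per list and comparison that passed. Naming went past that rule for a few list genes that did not pass or were not among the largest, which were chosen after their values were seen. Alternatives were the groups in the fit, the filter, the replicate block, a GC and length correction, voom and log2 of reads plus 1. Others were scaling to all reads or to reads outside immunoglobulin genes, the other table, and leaving out each library. Leaving out both myeloid-rich BCR day 10 libraries was added after seeing the data. It left 1 library in that group, so only effect sizes are given for it. Same-numbered libraries deviated together (every r above 0.1 over 7795 genes) in wild type TLR against BCR at day 10 (0.468 to 0.513), dEx1A against wild type BCR at day 4, dEx1A LPS day 7 against day 4 and dEx1A TLR against BCR at day 4. This was read from the data and not from the labels. Only in wild type TLR against BCR at day 10 and dEx1A LPS day 7 against day 4 did every library deviate most with its own number.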

Additional observations from a re-analysis of the deposited data

Results flagged for a closer look

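The genotype difference (dEx1A minus wild type) changed between day 4 and day 7 for the following genes, as limma's interaction term found. In LPS culture the change was 1.94 for Igkc, 2.47 for Iglc1, 2.24 for Iglc2, 2.36 for Jchain and -1.26 for Vpreb3. In BCR culture it was -1.55 for Igkc, -1.73 for Iglc1, -1.60 for Iglc2, -1.77 for Iglc3 and -1.63 for Jchain, and in TLR culture it was -1.54 for Jchain. The difference between cultures in this change was not tested. In each culture the day 7 dEx1A libraries lie in the lower depth class and the day 4 dEx1A libraries in the higher, so depth class cannot be told apart from the change. Labelled sex and age also go with genotype in TLR and BCR culture. Leaving out 1 library ended the Vpreb3 call in LPS culture for 9 libraries. It ended the Jchain call for 7 libraries in BCR culture and 5 in TLR culture. Both Jchain calls of BCR and TLR culture were also lost after correction for GC content and length.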

How the results depend on the processing

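Over the 186 differences of single genes reported, direction and side of the threshold were kept for 184 under the replicate block, 183 under voom, 185 with log2 of reads plus 1, 182 without the filter, 169 with scaling to reads outside immunoglobulin genes, 168 with the GC and length correction with or without the block, 156 with scaling to all reads and 162 with only the compared groups in the fit, which has fewer samples. The replicate block ended the Vpreb3 call between TLR day 4 and day 0 (-0.90, adjusted p = 0.0566) and added that of Jchain for TLR over BCR at day 10 (1.23, adjusted p = 0.0229); it changed no other call. Scaling to all reads moved the median of all genes to -0.469 for TLR day 7 over day 4 and -0.753 for TLR day 10 over day 0.

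Signs turned for the following log2 differences, of which Vpreb3 in TLR day 10 over day 0 had passed the test and the others had not. Scaling to all reads gave Vpreb3 -0.63 in TLR day 7 over day 4, Iglc2 -0.41 in TLR day 10 over day 7, Vpreb3 -0.39 in TLR day 10 over day 0. It gave Jchain -0.31 in BCR day 10 over day 7, Vpreb3 -0.50 in BCR day 10 over day 0, Iglc1 -0.031 in TLR over BCR at day 7. The same setting gave Iglc3 -0.054 in TLR over BCR at day 10, Iglc1 0.033 in dEx1A over wild type TLR day 7, Vpreb3 0.24 in dEx1A over wild type BCR day 7. It gave Iglc1 -0.013 in dEx1A TLR over BCR at day 4, Iglc3 0.14 in dEx1A LPS over TLR at day 7, Igkc -0.39 and Iglc1 -0.13 in the TLR minus BCR change from day 4 to day 7. The same setting gave Iglc2 0.17 and Iglc3 0.17 in the change of the TLR genotype difference. Scaling to reads outside immunoglobulin genes gave Jchain -0.070 in BCR day 10 over day 7, Iglc1 -0.0014 in dEx1A TLR over BCR at day 4, Iglc3 0.00027 in dEx1A LPS over TLR at day 7. It gave Igkc -0.17 in the TLR minus BCR change from day 4 to day 7, Iglc3 0.15 and Jchain 0.030 in the TLR minus BCR change from day 7 to day 10, Iglc2 0.058 and Iglc3 0.061 in the change of the TLR genotype difference. The GC and length correction, with or without the block, gave Jchain 0.041 in TLR day 10 over day 7, Vpreb3 0.0076 in LPS day 7 over day 4, Igkc -0.042 in the TLR minus BCR change from day 4 to day 7. It gave Iglc3 0.26 and Jchain 0.028 in the TLR minus BCR change from day 7 to day 10, Iglc2 0.13 and Iglc3 0.17 in the change of the TLR genotype difference. Leaving out the 2 myeloid-rich BCR day 10 libraries gave Iglc2 0.18 in BCR day 10 over day 7, Iglc3 -0.81 in TLR over BCR at day 10, Igkc -0.11, Iglc1 -0.30, Iglc2 -0.013 in the TLR minus BCR change from day 7 to day 10. Leaving out 1 library gave ranges across 0 of Igkc -0.23 to 0.36 in the TLR minus BCR change from day 4 to day 7, Igkc -0.088 to 0.44, Iglc1 -0.23 to 0.31, Iglc2 -0.41 to 0.063, Iglc3 -0.33 to 0.080 in the change of the TLR genotype difference, Iglc1 -0.015 to 0.30 in TLR over BCR at day 4, Iglc1 -0.14 to 0.40, Iglc2 -0.013 to 0.46, Iglc3 -0.48 to 0.59 in dEx1A LPS over TLR at day 7. It gave Iglc1 -0.093 to 0.12 and Vpreb3 -0.018 to 0.30 in dEx1A TLR over BCR at day 4, Iglc1 -0.45 to 0.087 in dEx1A over wild type TLR day 7, Iglc2 -0.36 to 0.058 and Jchain -0.42 to 0.49 in BCR day 10 over day 7. The same setting gave Iglc3 -0.46 to 0.62 and Jchain -0.60 to 0.31 in the TLR minus BCR change from day 7 to day 10, Jchain -0.33 to 0.077 in TLR day 10 over day 7, Jchain -0.81 to 0.043 in dEx1A over wild type TLR day 4. It gave Vpreb3 -0.19 to 0.21 in LPS day 7 over day 4, Vpreb3 -0.057 to 0.37 in TLR day 7 over day 4, Vpreb3 -0.32 to 0.13 in dEx1A over wild type BCR day 7. For the ratios it gave log2 kappa to lambda of -0.069 to 0.066 for dEx1A over wild type TLR at day 7, and log2 kappa to J chain of -0.072 to 0.49 for TLR over BCR at day 10, -0.16 to 0.10 for dEx1A over wild type LPS at day 7 and -0.75 to 0.37 for dEx1A over wild type TLR at day 4.

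Counts of called genes moved as follows, with the cause not tested where samples were not removed. For TLR day 10 over day 7 (3) the count was 1 with all reads and 1 to 3 with a library left out. For BCR day 10 over day 7 (0) it was 1 with all reads and 0 to 3 with a library left out. For TLR over BCR at day 7 (2) it was 1 without the filter, with GC, with the block and GC and with voom, 0 with all reads and with non-immunoglobulin reads, and 0 to 1 with a library left out. For TLR over BCR at day 10 (2) it was 0 with only the compared groups, 4 with GC with or without the block, 1 with all reads and 1 to 5 with a library left out. For LPS day 7 over day 4 (2) it was 0 with only the compared groups. For dEx1A over wild type it was 5 with GC with or without the block and 3 to 5 with a library left out at LPS day 4 (3), 1 at LPS day 7 (4) and 0 at TLR day 4 (1) with only the compared groups. At TLR day 7 (2) it was 1 without the filter, with GC, with voom, with all reads and with non-immunoglobulin reads, and 1 to 2 with a library left out. At BCR day 4 (1) it was 0 with only the compared groups, 2 with GC with or without the block and with all reads, and 0 to 1 with a library left out. Within dEx1A it was 1 with only the compared groups and 1 to 2 with a library left out for TLR over BCR at day 4 (2), 3 with only the compared groups at day 7 (6), and 1 with GC with or without the block and 0 to 1 with a library left out for LPS over TLR at day 7 (0). For the interactions it was 1 with all reads for TLR minus BCR from day 4 to day 7 (0). It was 3 with only the compared groups and 3 to 6 with a library left out for LPS (5). It was 0 with GC with or without the block and with non-immunoglobulin reads and 0 to 2 with a library left out for TLR (1). It was 2 with only the compared groups and 3 to 5 with a library left out for BCR (5).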

Other observations

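Vpreb2, which is known from precursor B cells, averaged 5.49 in dEx1A BCR cells and 3.17 in wild type BCR cells at day 7, a difference of 2.32 ± 0.20 (limma, adjusted p = 1.58e-10), while Vpreb3 overlapped between the same groups. Summed reads of the 5 precursor B cell markers, which do not include Vpreb2, were 2.93 to 8.94 in dEx1A BCR cells and 4.70 to 8.98 in wild type BCR cells.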
